A study of Mus musculus with 4 samples.

Results

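The T cell receptor (TCR) has no signalling tail of its own and is carried to the surface by the CD3 chains. The 9 genes described here encode that machinery: the CD3 chains *Cd3d*, *Cd3e*, *Cd3g* and *Cd247* (the zeta chain), the kinases *Lck* and *Zap70*, the scaffold *Lat*, the adaptor *Lcp2* (SLP-76) and the thymocyte protein *Themis*. They were chosen by symbol, and all 9 are among the 21926 genes of the deposited tables, each in 1 row. In the thymus, a pre-TCR with the same CD3 chains drives CD4-CD8- double-negative (DN) cells into division. The TCR of CD4+CD8+ double-positive (DP) cells is then tested on self ligands in positive selection, after which cells mature to single-positive (SP) cells. On engagement, LCK phosphorylates the CD3 and zeta tails, ZAP70 docks there and phosphorylates LAT and SLP-76, and THEMIS, which sets the signal strength that DP cells read during selection, binds this complex through GRB2.

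The data are single-cell counts of unsorted thymus cells from 1 WT mouse and 1 *Eif4g2* cKO mouse. The WT mouse was *Eif4g2* flox/flox without Cre, and the cKO mouse was CD4-Cre; *Eif4g2* flox/flox, so both carried the floxed alleles and only the cKO carried the transgene. Both mice were 5 weeks old and labelled female. The sources used here give no batch difference between the libraries, which does not show that they were handled together. CD4-Cre is driven by *Cd4* regulatory sequences, which act from the end of the DN stage on, so DN cells and cells outside the T lineage largely keep the gene.

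With 1 library per genotype there was no replicate check, and no test, p-value or standard error is given. Genotype and library cannot be told apart. All intervals are exact at 95% and cover counting error only: the error of the counted molecules (unique molecular identifiers, UMIs), not the spread between mice. The level of a gene is its summed UMIs per 1000000 UMIs of the same cells (CPM). Differences are log2 ratios of CPM, and a difference beyond 0.5 in a gene with at least 50 UMIs over the cells compared is counted as higher or lower. Since a tag near the 3′ end is counted, levels are compared within a gene and not between genes.

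The WT library held 6014 barcodes and 18355050 UMIs, and the cKO library 4335 barcodes and 18056277 UMIs, with a median of 1733.5 and 2140.0 UMIs per kept cell. The library labelled WT and female held 2542 Y-linked UMIs (from *Kdm5d*, *Uty* and *Eif2s3y*), against 1 in the cKO library, so the label and the counts of the WT library do not match in sex. WT and cKO stand for the libraries so labelled. Both are labelled female, so an exchange of labels would not remove this mismatch, but it would turn the sign of each ratio between them. Mature SP-like cells (named below) were 7.47% of kept WT and 1.08% of kept cKO cells. By flow cytometry, the study reports fewer SP thymocytes in cKO mice. *Eif4g2* was not lower in the cKO library, as described below. Whether the labels were exchanged was not tested. Barcodes are deposited as running numbers rather than sequences, and the 1055 names found in both libraries therefore do not show shared cells. Cells were clustered together without the 9 genes, the other signalling genes described and *Eif4g2*, and clusters were named from markers (names ending in "-like"). The DN-like class held 97 WT and 124 cKO cells, the cycling class 975 and 1306, the DP-like class 3395 and 2127, the early post-selection-like class 929 and 688, and the mature SP-like class 449 and 47. In each of these classes at least 5 markers of its list were raised in every cluster, though cycling cluster 9 (37 WT and 411 cKO cells) had none among its leading genes. The mature SP-like cluster was also led by the interferon-response genes *Ifit1*, *Ifit3* and *Isg15*. DP-like WT cells came mostly from cluster 0 (2360 WT and 178 cKO cells), led by *Themis* itself although it was no clustering gene, and DP-like cKO cells from clusters 1 (1005 and 945) and 2 (30 and 1004). Cycling cells were split likewise, with 505 WT and 51 cKO cells in cluster 7 and 46 and 653 in cluster 5. Values within clusters that hold at least 150 cells of each library are therefore given beside those of whole stages.

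*Eif4g2*, the targeted translation factor, was not lower in the cKO library. Its level was 223 CPM in all WT barcodes and 274 CPM in all cKO barcodes. In DP-like cells it was 260.0 CPM (247 to 274) in WT and 523 CPM (499.7 to 548) in cKO, a log2 ratio of 1.01 (0.91 to 1.11). The ratio was 0.50 in DN-like, 0.59 in early post-selection-like and 0.53 in mature SP-like cells, and -0.23 (-0.33 to -0.14) in cycling cells. Tags are counted near the 3′ end, and the floxed exons are not given in the sources used here, so whether these UMIs could show the deletion is unknown and they are no check of it.

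*Themis*, whose protein is needed for selection of DP cells, showed the widest gap between the libraries among the 9 genes at every stage. In WT its level was 355 CPM in DN-like, 483 in cycling, 2225 in DP-like, 652 in early post-selection-like and 380.2 in mature SP-like cells. In cKO it was 114, 179, 1002, 295 and 184 CPM in the same order. In CPM both libraries had a single peak in DP-like cells, and at each stage the cKO interval lay below the WT interval. The log2 ratio of cKO to WT was -1.64 (-2.00 to -1.30) in DN-like, -1.43 (-1.51 to -1.35) in cycling, -1.15 (-1.21 to -1.10) in DP-like, -1.14 (-1.287 to -1.001) in early post-selection-like and -1.05 (-1.55 to -0.58) in mature SP-like cells. In DN-like cells 220 UMIs were counted in WT and 101 in cKO. Among all genes compared, 2.46% had a lower ratio than *Themis* in DN-like cells, 4.71% in DP-like cells and 15.1% in mature SP-like cells. Antigen-presenting cell-like cells, which should lack *Themis*, had 1161 CPM (979 to 1366) in WT and 1194 CPM (780.1 to 1750) in cKO, above the level of every stage but WT DP-like cells, and WT erythroid-like cells had 94.8 CPM. The part of such background in the ratios was not tested. In UMIs per cell the DP-like peak was not kept in WT, where cycling cells held 3.69, DP-like cells 3.56 and mature SP-like cells 1.68. In cKO the same classes held 1.56, 1.67 and 0.83.

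Within shared clusters the *Themis* gap was narrower before selection and as wide after it. In cycling cluster 6 the log2 ratio was -0.01 (-0.15 to 0.13), from 1347 WT and 558 cKO UMIs. In the DP-like clusters it was -0.27 (-0.37 to -0.17) in cluster 0 and -0.62 (-0.71 to -0.52) in cluster 1. After selection it was -1.20 (-1.38 to -1.02) in cluster 3, led by *Nr4a1* and *Ikzf2*, and -1.13 (-1.37 to -0.89) in cluster 4, led by *Itm2a* and *Izumo1r*. Genes that span over 100 kb, as *Themis* does (below), took a similar course. Their median ratio was -0.19 in cycling cluster 6, -0.13 and -0.42 in DP-like clusters 0 and 1, and -0.91 and -1.05 in clusters 3 and 4. Since these clusters are drawn from other genes that move with *Themis*, a narrower ratio within them does not show which of the ratios describes the genotype.

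**Figure D1:**
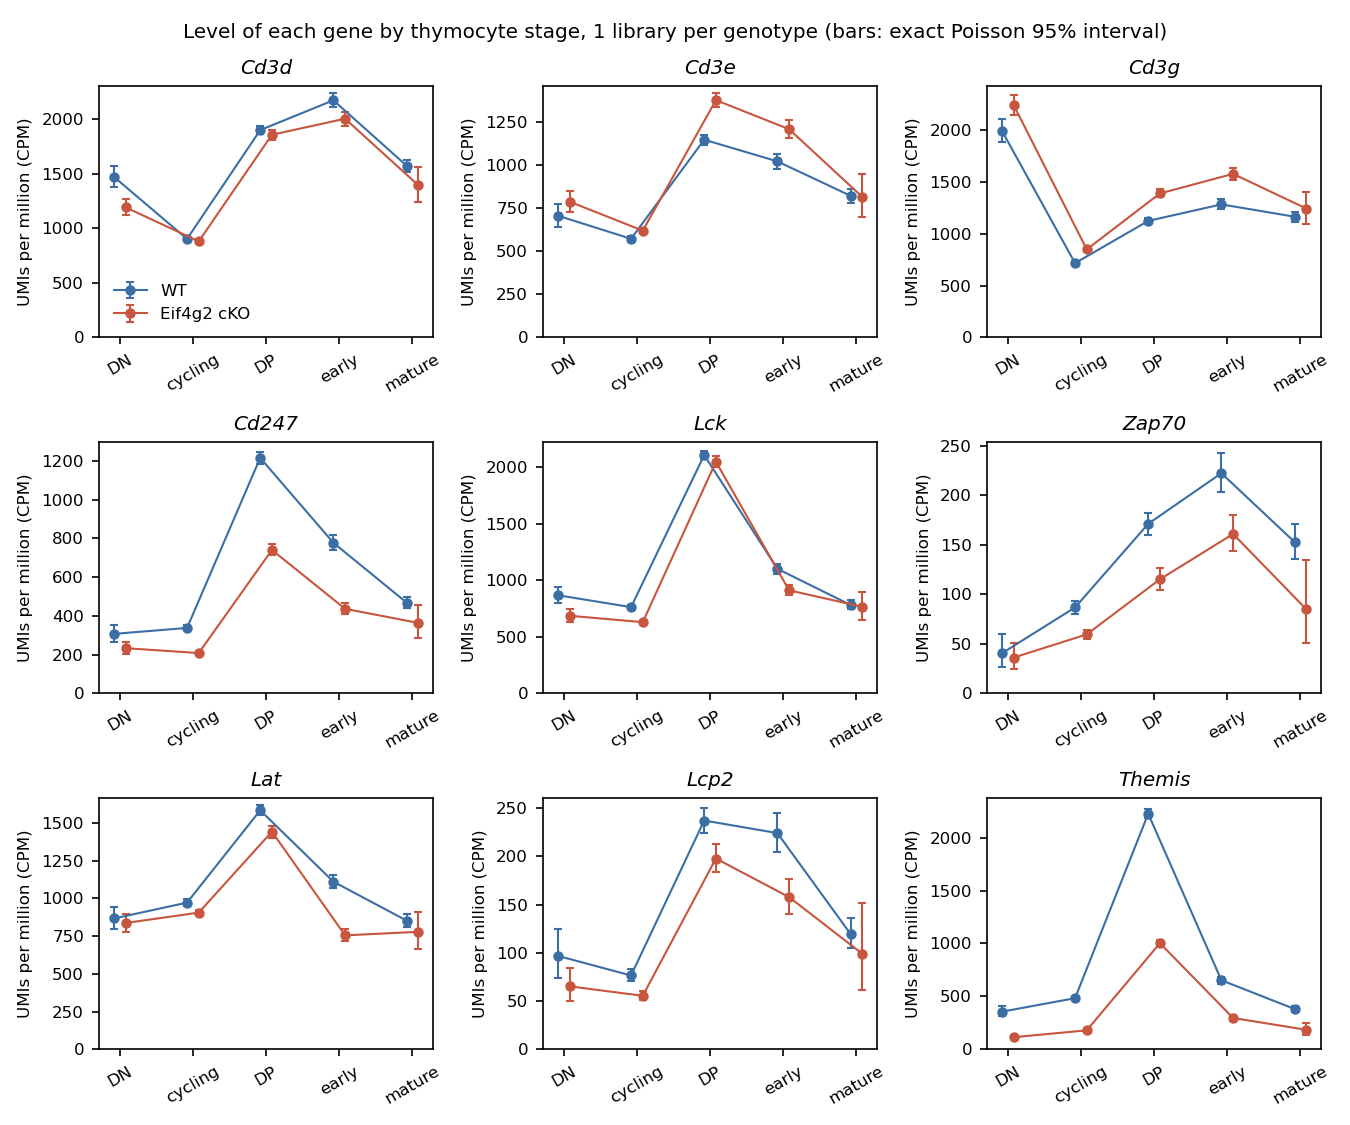
Level of each gene (CPM, axis from 0) in the DN-like, cycling, DP-like, early post-selection-like and mature SP-like cells of the WT and *Eif4g2* cKO libraries, with exact Poisson 95% intervals as bars. *Themis*, *Cd247*, *Lck* and *Lat* peak in DP-like cells in both libraries, *Cd3g* is highest in DN-like cells, and the *Themis* and *Cd247* lines of cKO run below those of WT at every stage.

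The CD3 chains did not share one course over development. *Cd3g*, which pairs with CD3 epsilon, was highest in DN-like cells: its level in WT was 1997 CPM in DN-like, 717 in cycling, 1125 in DP-like, 1285 in early post-selection-like and 1166 in mature SP-like cells. In cKO it was 2247, 849.6, 1391, 1580.2 and 1245 CPM. From DN-like to DP-like cells the level of *Cd3g* fell by 0.83 on the log2 scale in WT (interval -0.92 to -0.74) and by 0.69 in cKO (-0.77 to -0.62), the only one of the 9 genes that was lower at this step. *Cd3d*, which also pairs with CD3 epsilon, went the other way: its level in WT was 1473 CPM in DN-like, 903 in cycling, 1902 in DP-like, 2176 in early post-selection-like and 1576 in mature SP-like cells. In cKO it was 1193, 880.3, 1859.6, 2007 and 1396 CPM. Its log2 step from DN-like to DP-like cells was 0.37 (0.27 to 0.47) in WT and 0.64 (0.55 to 0.74) in cKO, and both libraries reached their highest level after selection. The median step of all genes was 0.54 in WT and 0.59 in cKO, so the step of *Cd3d* was below that of the median gene in WT and above it in cKO, and the step of *Cd3g* was below it in both. In UMIs per cell both were lower in DP-like cells, *Cd3d* at -1.63 and -1.47.

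*Cd3d* and *Cd3g* are neighbours that are transcribed away from each other. On GRCm38 (mm10, GENCODE M21), *Cd3g* lies at chr9:44969572-44980431 on the minus strand and *Cd3d* at chr9:44981786-44987339 on the plus strand, with 1354 bases between their starts. *Cd3e* lies beside them at chr9:44998740-45009627 on the minus strand. Because the CPM of this pair moved in opposite directions between DN-like and DP-like cells, the 250 bases before each RefSeq start (GRCm38.p6) are shown here, 5′ to 3′ in the direction of each gene. Capitals mark matches, on either strand, to AGGAAG (ETS), TGTGGT (RUNX), CAGCTG and CACCTG (E-boxes) and CTTTGA (TCF/LEF), and no matches overlap.
*Cd3d*, chr9:44981536-44981785, plus strand: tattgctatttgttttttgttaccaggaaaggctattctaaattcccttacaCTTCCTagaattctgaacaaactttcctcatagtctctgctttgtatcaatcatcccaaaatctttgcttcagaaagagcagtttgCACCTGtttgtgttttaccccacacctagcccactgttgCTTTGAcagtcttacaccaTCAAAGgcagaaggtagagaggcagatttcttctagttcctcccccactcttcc
*Cd3g*, chr9:44980432-44980681, minus strand: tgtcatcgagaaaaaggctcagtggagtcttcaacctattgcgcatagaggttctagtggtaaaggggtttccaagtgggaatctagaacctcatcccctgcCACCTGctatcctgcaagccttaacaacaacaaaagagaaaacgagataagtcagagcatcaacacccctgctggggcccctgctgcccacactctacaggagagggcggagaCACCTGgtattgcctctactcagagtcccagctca
The *Cd3d* window holds 1 match to AGGAAG, 1 to CACCTG and 2 to CTTTGA, and the *Cd3g* window holds 2 to CACCTG. Of 32851 such windows over the genome, 29.5% hold AGGAAG, 17.2% CACCTG, 13.8% CTTTGA, 14.0% TGTGGT and 13.0% CAGCTG. These matches describe the letters of the windows and are not binding sites.

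*Cd3e*, whose protein pairs with both of these chains, was highest in DP-like cells in both libraries. In WT it was 707 CPM in DN-like, 572 in cycling, 1149 in DP-like, 1023 in early post-selection-like and 822 in mature SP-like cells, and in cKO 788, 619.7, 1378, 1209.8 and 816 CPM. Between the libraries, *Cd3e* and *Cd3g* were the genes of this set with the highest ratios. In DP-like cells the log2 ratio of cKO to WT was 0.26 (0.21 to 0.32) for *Cd3e* and 0.31 (0.25 to 0.36) for *Cd3g*, and in early post-selection-like cells 0.24 (0.16 to 0.33) and 0.30 (0.22 to 0.37). In mature SP-like cells both intervals held 0, at -0.01 (-0.25 to 0.22) and 0.09 (-0.09 to 0.28). The ratio of *Cd3d* was -0.03 (-0.08 to 0.01) in DP-like and -0.12 (-0.18 to -0.05) in early post-selection-like cells. None of these 3 chains was beyond 0.5 at any stage.

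*Cd247* (chr1:165788681-165877277, plus strand), the zeta chain, whose tail carries several activation motifs, had lower ratios than the other chains. Its level in WT was 307 CPM in DN-like, 337 in cycling, 1216 in DP-like, 777 in early post-selection-like and 468 in mature SP-like cells. In cKO it was 233, 208, 740.0, 436 and 363 CPM. Its log2 ratio of cKO to WT was below 0 at every stage, at -0.40 (-0.69 to -0.11), -0.70 (-0.78 to -0.62), -0.72 (-0.78 to -0.65), -0.83 (-0.96 to -0.71) and -0.37 (-0.72 to -0.03), the middle 3 beyond 0.5. In the shared clusters the ratio was 0.08 (-0.08 to 0.23) in cycling cluster 6, -0.42 in DP-like cluster 0, -0.51 in DP-like cluster 1, -0.91 in early cluster 3 and -0.76 in early cluster 4. The annotated end of *Cd247* overlaps *Pou2f1* on the other strand by 12124 bases, and the sources used here do not say whether counting used strand, so its count is uncertain to that extent.

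*Lck* (chr4:129548344-129573641, minus strand), the kinase that opens the cascade, was highest in DP-like cells in both libraries. In WT it was 866 CPM in DN-like, 761 in cycling, 2105 in DP-like, 1100.0 in early post-selection-like and 780.1 in mature SP-like cells, and in cKO 685, 628, 2046, 909.7 and 764 CPM. In UMIs per cell the order was different: WT held 3.37 UMIs of *Lck* in DP-like, 2.60 in early post-selection-like and 3.45 in mature SP-like cells, beside medians of 1405, 1932 and 3968 UMIs of all genes. The log2 ratio of cKO to WT was -0.04 (-0.08 to 0.00) in DP-like and -0.03 (-0.27 to 0.20) in mature SP-like cells. It was below 0 in DN-like (-0.34), cycling (-0.28) and early post-selection-like cells (-0.27).

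*Zap70* (chr1:36761798-36782818, plus strand), which docks on the phosphorylated chains, peaked in CPM after the stage at which *Lck* did. Its level in WT was 40.3 CPM in DN-like cells (25 UMIs), 86.7 in cycling, 171 in DP-like, 222 in early post-selection-like and 153 in mature SP-like cells. In cKO it was 36.0 CPM (32 UMIs), 59.5, 115, 161 and 84.9 CPM (18 UMIs). Both libraries had the highest level just after selection, and the log2 step from DP-like to early post-selection-like cells was 0.38 (0.22 to 0.54) in WT and 0.48 (0.26 to 0.70) in cKO. In UMIs per cell, early post-selection-like cells were not the highest, at 0.53 in WT and 0.44 in cKO. Cycling cells held 0.66 and 0.52, and mature SP-like cells 0.67 and 0.38. Between the libraries *Zap70* was lower in cycling cells, at -0.54 (-0.70 to -0.39), in DP-like cells, at -0.57 (-0.74 to -0.40), and in mature SP-like cells, at -0.85 (-1.62 to -0.16). It was -0.47 (-0.68 to -0.26) in early post-selection-like cells. The ratio was -0.83 (-1.11 to -0.55) in DP-like cluster 1, where 6.34% of all genes had a lower ratio.

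Of the adaptors, *Lat* (chr7:126363824-126369570, minus strand), the membrane scaffold phosphorylated by ZAP70, was beyond 0.5 between the libraries in early post-selection-like cells and at no other stage. Its level in WT was 866 CPM in DN-like, 971 in cycling, 1583 in DP-like, 1110.4 in early post-selection-like and 853 in mature SP-like cells, and in cKO 837, 905, 1442, 755 and 778 CPM. The log2 ratio was -0.14 (-0.19 to -0.08) in DP-like, -0.56 (-0.65 to -0.46) in early post-selection-like and -0.13 (-0.37 to 0.10) in mature SP-like cells. *Lcp2* (chr11:34046920-34092295, plus strand), which assembles effectors on LAT, was highest in DP-like and early post-selection-like cells. In WT it was 96.8 CPM in DN-like, 76.5 in cycling, 237 in DP-like, 224 in early post-selection-like and 119.5 in mature SP-like cells, and in cKO 65.2, 55.4, 198, 158 and 99.0 CPM. Its log2 ratio was -0.57 (-1.12 to -0.02) in DN-like, -0.26 (-0.40 to -0.13) in DP-like, -0.51 (-0.72 to -0.30) in early post-selection-like and -0.27 (-0.99 to 0.37) in mature SP-like cells. The annotated gene *4930469K13Rik* covers all of *Lcp2* on the other strand.

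Counted together, 2 of the 9 genes were lower in cKO in DN-like cells (*Lcp2* and *Themis*), 3 in cycling and 3 in DP-like cells (in both cases *Cd247*, *Zap70* and *Themis*), 4 in early post-selection-like cells (*Cd247*, *Lat*, *Lcp2* and *Themis*) and 2 in mature SP-like cells (*Zap70* and *Themis*), and none was higher. Lower ratios were common over all genes: 26.3% of the genes compared in DN-like cells were lower, 35.1% in cycling, 29.6% in DP-like, 36.8% in early post-selection-like and 32.5% in mature SP-like cells. The shares of higher genes were 10.6%, 3.2%, 8.07%, 7.14% and 14.6%. The counts for the 9 genes are near these shares, and are no result about the set. The median log2 ratio of the 9 genes was -0.30, -0.28, -0.14, -0.47 and -0.17 in the order of stages, beside -0.09, -0.27, -0.18, -0.27 and -0.15 for all genes. Under alternative settings, the *Themis* ratio was beyond 0.5 in all settings at each stage except 2 of 12 in mature SP-like cells. The calls of *Lcp2* in DN-like and of *Lat* and *Lcp2* in early post-selection-like cells were kept in 5 of 11, 5 of 12 and 4 of 12 settings.

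**Figure D2:**
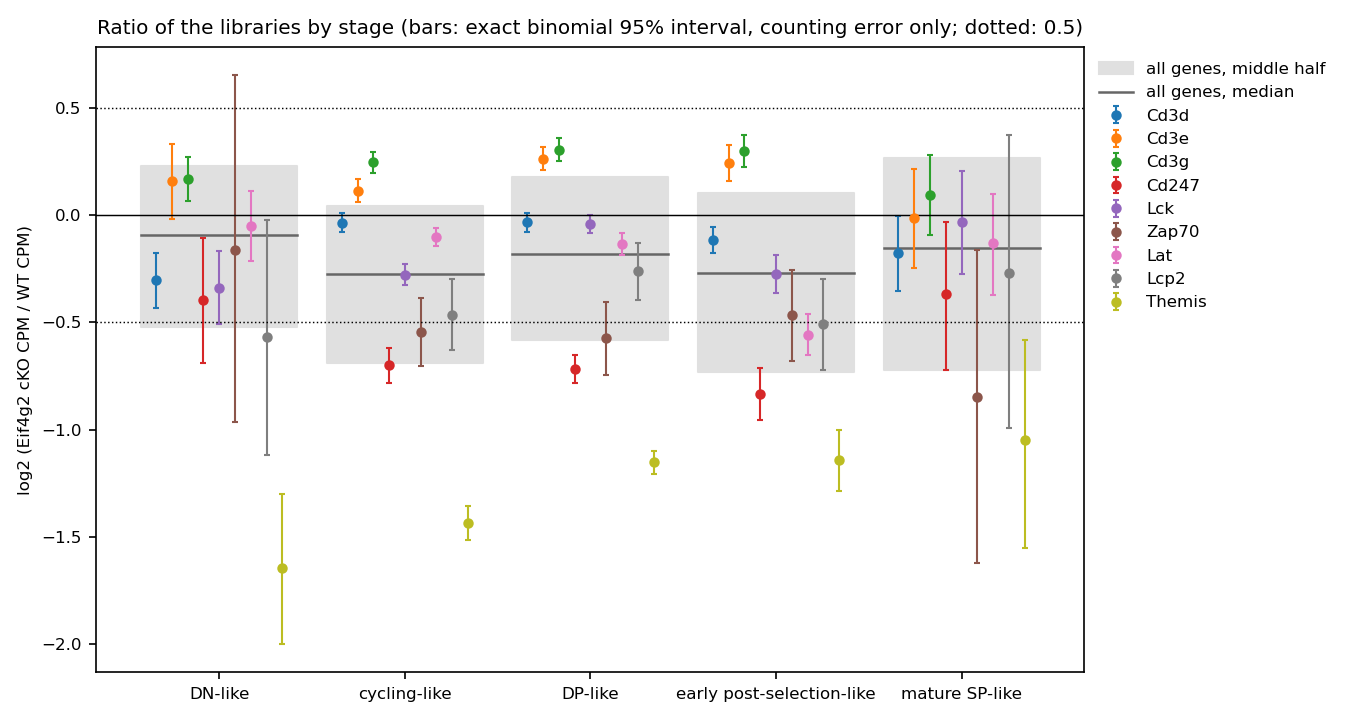
Log2 ratio of *Eif4g2* cKO to WT CPM of each gene (points, with exact binomial 95% intervals) in each stage, over the median (line) and the interquartile range (grey) of all genes compared. *Themis* lies below the grey area at every stage, and *Cd3e* and *Cd3g* lie above it in cycling, DP-like and early post-selection-like cells.

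In the shared clusters, 0 of the 9 genes were beyond 0.5 in cycling cluster 6, where 13.8% of all genes were lower and 10.7% higher. In DP-like cluster 0, *Zap70* was lower at -0.59 (-1.06 to -0.15), where 20% of all genes were lower and 11.8% higher. In DP-like cluster 1, *Cd247*, *Zap70* and *Themis* were lower, where 19.6% were lower and 8.12% higher. In early cluster 3, *Cd247*, *Zap70*, *Lcp2* and *Themis* were lower, where 34.9% were lower and 8.76% higher. In early cluster 4, *Cd247*, *Lat* and *Themis* were lower, where 39.6% were lower and 7.47% higher. *Cd3d*, *Cd247*, *Lck*, *Lat* and *Lcp2* had ratios above 0 in cycling cluster 6, from 0.08 (*Cd247*) to 0.31 (*Lcp2*), and below 0 in both early clusters.

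**Figure D3:**
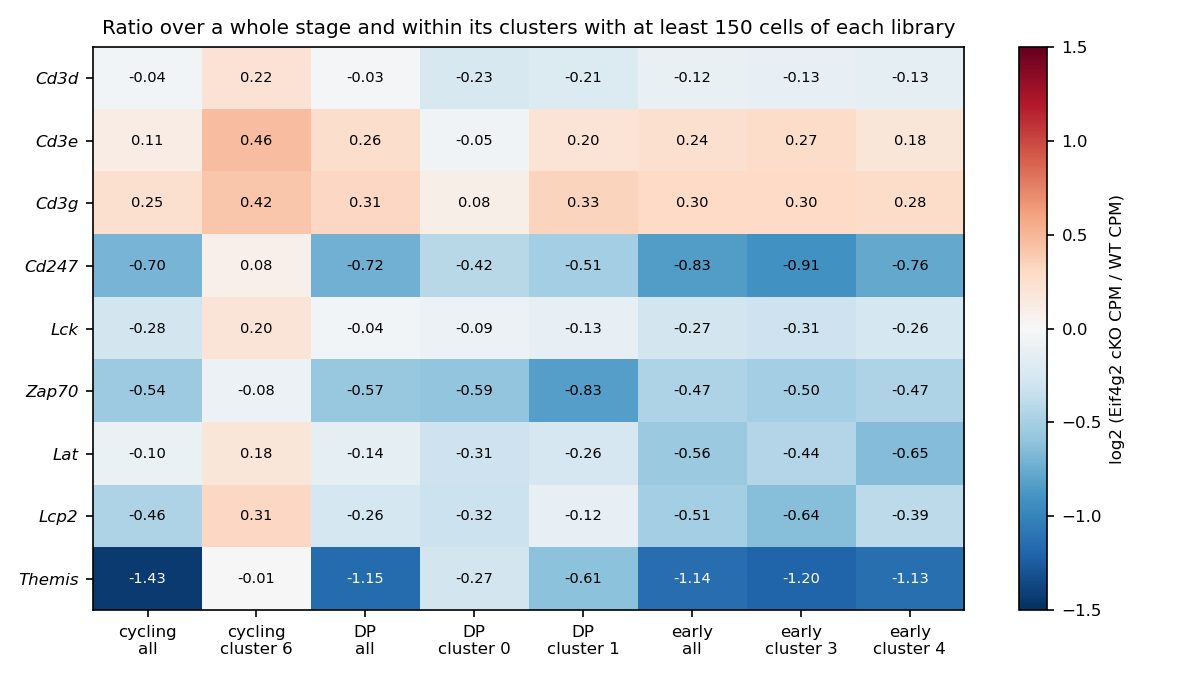
Log2 ratio of *Eif4g2* cKO to WT CPM of each gene (rows; blue lower and red higher in cKO) over whole stages and within the clusters that hold at least 150 cells of each library (columns). The *Themis* ratio is -1.43 over cycling cells and -0.01 in cycling cluster 6, and stays between -1.20 and -1.13 in the 2 clusters after selection.

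The genes were also set beside the length of genome that each spans. *Themis* (chr10:28668360-28883818, plus strand) spans 215.46 kb, *Cd247* 88.6 kb and *Lcp2* 45.38 kb, while *Cd3d* spans 5.55 kb, *Lat* 5.75 kb, *Cd3g* 10.86 kb, *Cd3e* 10.89 kb, *Zap70* 21.02 kb and *Lck* 25.3 kb. Over all genes in DP-like cells, the median log2 ratio was 0.21 for spans up to 5 kb, 0.05 for 5 to 20 kb, -0.22 for 20 to 50 kb, -0.50 for 50 to 100 kb and -0.75 for spans over 100 kb. The same order was seen in DN-like cells, from 0.10 to -0.88, in cycling cells, from 0.05 to -0.95, in early post-selection-like cells, from 0.09 to -0.94, and in mature SP-like cells, from 0.09 to -0.75. *Themis* lay below the lower quartile of genes over 100 kb in DN-like (-1.37), cycling (-1.31) and DP-like cells (-1.02), and within the interquartile range of that class in early post-selection-like and mature SP-like cells. *Cd247* lay within the interquartile range of genes of 50 to 100 kb at all 5 stages. *Zap70*, of 20 to 50 kb, lay below the lower quartile of its class in DP-like (-0.52) and mature SP-like cells (-0.64), and *Lat*, of 5 to 20 kb, below that of its class (-0.38) in early post-selection-like cells. In DN-like cells *Cd3d* and *Lcp2* lay below the lower quartiles of their classes (-0.24 and -0.47). *Cd3g* lay above the upper quartile of its class in cycling (0.15) and early post-selection-like cells (0.25). Every other ratio of a member lay within the interquartile range of its class. In cycling cluster 6, where *Themis* did not differ beyond its interval, the median of genes over 100 kb was -0.19. The part of span in the members' ratios was not tested.

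**Figure D4:**
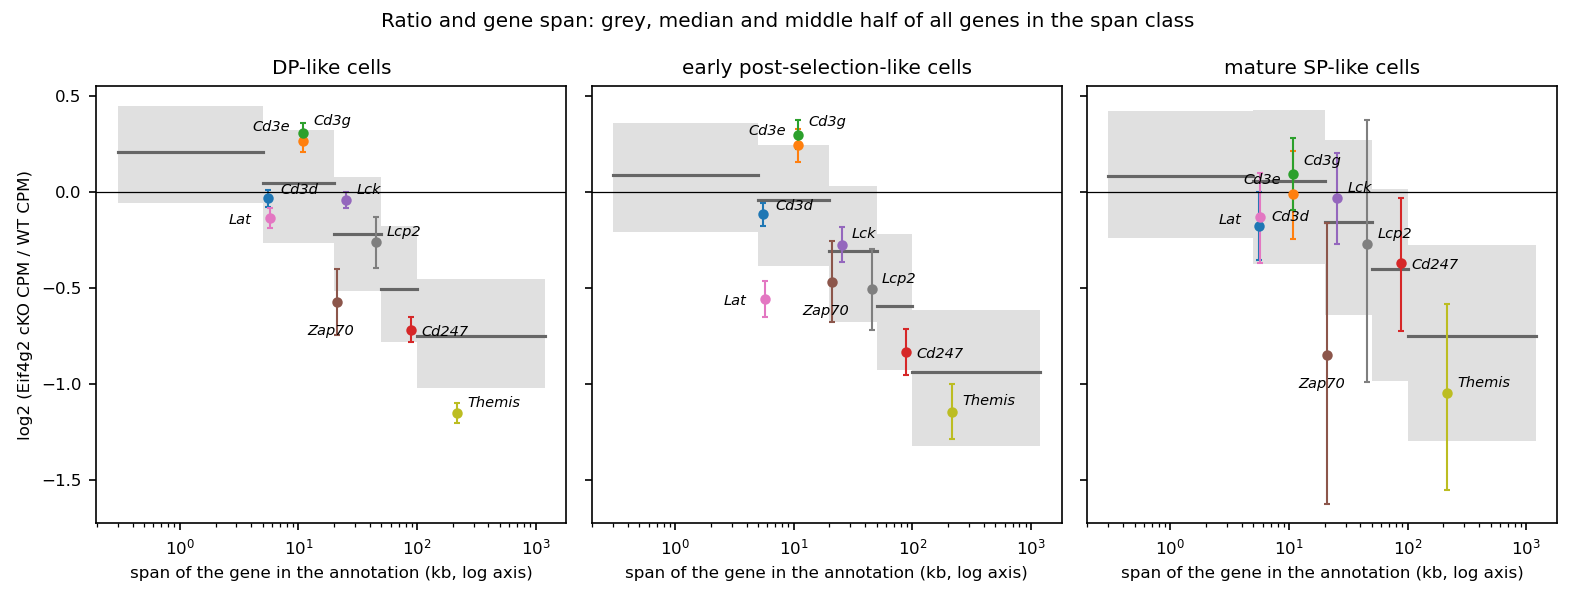
Log2 ratio of *Eif4g2* cKO to WT CPM of each gene (points, exact binomial 95% intervals) against its annotated span (kb, log axis) in DP-like, early post-selection-like and mature SP-like cells, with the median (line) and interquartile range (grey) of all genes in 5 span classes. The grey steps go down with span in all 3 panels, and *Themis*, at 215.46 kb, sits below its class in DP-like cells and inside it after selection.

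Ordered by level, the 5 stages came in the same order in both libraries for *Cd3d*, *Cd3e*, *Zap70* and *Lcp2*. For *Cd3d* and *Zap70* that order began with early post-selection-like cells, and for *Cd3e* and *Lcp2* with DP-like cells. Of the 36 pairs of neighbouring stages in these orders (4 for each gene), 11 had overlapping intervals in WT and 17 in cKO. The mature SP-like and DN-like levels of *Cd3d* were such a pair in both libraries, as were the DP-like and mature SP-like levels of *Cd3g* and of *Zap70*. For *Lat* the order differed most: early post-selection-like cells came second in WT and last in cKO, where their interval overlapped that of mature SP-like cells. The DP-like peak of *Lcp2* overlapped early post-selection-like cells in WT and not in cKO.

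Within each library, most members had a higher CPM in DP-like than in DN-like cells. In WT, 7 of 9 were higher and 1 lower, beside 51.7% and 14.8% of all genes, and in cKO 8 were higher and 1 lower, beside 53.8% and 12.2%. The log2 step of *Themis* was 2.65 (2.46 to 2.85) in WT and 3.14 (2.86 to 3.44) in cKO, that of *Zap70* 2.09 (1.51 to 2.72) and 1.68 (1.16 to 2.25), and that of *Cd247* 1.99 (1.78 to 2.20) and 1.67 (1.46 to 1.88). The log2 step of all UMIs per cell was -1.999 in WT and -2.11 in cKO. In UMIs per cell, *Themis* alone was higher by more than 0.5 in both libraries, at 0.65 and 1.03. *Cd3d*, *Cd3e*, *Cd3g*, *Lck*, *Lat* and *Lcp2* were lower by more than 0.5 in both, from -2.83 and -2.80 (*Cd3g*) to -0.71 and -0.51 (*Lcp2*). The share of all genes beyond 0.5 in UMIs per cell was not counted, so these calls are no result about the set.

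From DP-like to early post-selection-like cells, 4 genes were lower in each library, namely *Themis*, *Lck*, *Cd247* and *Lat* in both, and none was higher. This compares with 30.9% and 37.1% of all genes lower and 12.3% and 7.97% higher. *Themis* fell by 1.77 on the log2 scale (interval -1.85 to -1.69) in WT and by 1.76 (-1.89 to -1.63) in cKO, and *Lck* fell by 0.94 (-1.0004 to -0.873) and by 1.17 (-1.25 to -1.09). *Lat* had a log2 step of -0.51 (-0.58 to -0.45) in WT and of -0.93 (-1.02 to -0.85) in cKO. In UMIs per cell, *Themis* was still lower, at -1.21 and -1.04, while *Lat* was at 0.05 and -0.21. From early post-selection-like to mature SP-like cells 4 genes were lower in WT (*Cd247*, *Zap70*, *Lcp2* and *Themis*) and 5 in cKO (*Cd3d*, *Cd3e*, *Zap70*, *Lcp2* and *Themis*), beside 30.7% and 27.8% of all genes, and none was higher, beside 8.34% and 12.8%.

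Cells named as other than T cells were not free of UMIs of these genes. Whether such cells express any of the 9 genes themselves was not tested. In 45 WT erythroid-like cells, with a median of 6083 UMIs, members were at 10.9 (*Zap70*) to 128 CPM (*Cd3d*). In 54 WT antigen-presenting cell-like cells, with a median of 1898.5 UMIs and *Cd74* at 9582 CPM, *Themis* was at 1161 CPM, *Cd3d* at 881, *Lck* at 800.5 and *Thy1*, a T lineage marker, at 865 CPM. The defining dendritic cell markers *Siglech*, *Xcr1* and *Clec9a* were at 0 UMIs there, and 9 and 5 of the 12 listed markers were raised in its clusters. The first cluster, led by *C1qb*, *C1qa* and *Lyz2*, held 33 WT and 13 cKO cells. The other, led by the B cell markers *Cd79a* and *Ms4a1*, held 21 WT cells and 1 cKO cell, so the mix of cells in this reference differs between the libraries. Doublets were not removed, and their part in these values was not tested. After each cell was thinned to 1000 UMIs, all 45 shares of WT cells with a UMI (9 genes in 5 stages) were above the erythroid-like share and 36 were above the antigen-presenting cell-like share. In cKO, with 14 antigen-presenting cell-like cells (median 1378 UMIs) and 4 erythroid-like cells (median 3017 UMIs), 40 of the 45 shares were above the erythroid-like share and 15 above the antigen-presenting cell-like share. Of the WT stages, the *Themis* share was above both references in DP-like cells alone, at 83.0% (before thinning 90.2%), against 59.3% and 8.89%. In cKO DP-like cells it was 57.0% (before thinning 68.9%), within the interval of the antigen-presenting cell-like share of 50% (23.0 to 77.0). The *Themis* shares of the other stages are not read as expression. In WT, *Cd247* was below the antigen-presenting cell-like share (37.0%) in DN-like, cycling and mature SP-like cells, and *Zap70* (9.26%) in DN-like and cycling cells. In cKO, *Cd247* and *Cd3d* were below it at every stage, at 50.4% against 78.6% and 81.3% against 92.9% in DP-like cells. *Zap70* was below it at every cKO stage but early post-selection-like. These shares are likewise not read as expression, and the part of this background in the ratios was not tested.

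All 4 CD3 chains were counted in the same thinned cell (at 1000 UMIs) in 22.9% (21.5 to 24.3) of WT and 23.2% (21.40 to 25.03) of cKO DP-like cells. In early post-selection-like cells this share was 19.9% (17.4 to 22.6) and 18.6% (15.8 to 21.7), and in mature SP-like cells 10.9% (8.18 to 14.2) and 8.51% (2.37 to 20.4). It was 5.56% (1.16 to 15.4) in WT antigen-presenting cell-like cells and 42.9% (17.7 to 71.1), or 6 of 14 cells, in those of cKO, above the share of each cKO stage, so the cKO shares are not read as expression. It was 0 of 45 in WT erythroid-like cells, which allows a share of up to 6.67% by 3 cells in 45 and 7.87% by the exact interval. The intervals of the libraries overlapped at each of these stages.

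Mature SP-like cells were also divided by coreceptor. In WT, 59 cells had UMIs of *Cd4* and none of *Cd8a* or *Cd8b1*, and 188 the reverse. The log2 ratio of the second to the first was -0.52 (-0.84 to -0.19) for *Cd247*, at 358 against 512 CPM, and lay between -0.28 and 0.19 for the other 8 genes, each with an interval that held 0. Over all genes, 14.7% were lower and 15.3% higher. In cKO each class had 10 cells: *Cd247* had 4 UMIs in the *Cd8* class and 12 in the *Cd4* class, and *Zap70* had 6 and 0 UMIs, which is too few to compare.

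The other genes of proximal TCR signalling were taken from a list of 47 kinases, phosphatases, adaptors, coreceptors and receptor chains, of which 44 are in the tables. The TCR alpha and beta constant genes were not analysed here. In DN-like cells 19 of 32 compared were lower in cKO and 1 higher, in cycling cells 26 of 42 were lower and 0 higher, in DP-like cells 22 of 42 were lower and 1 higher, in early post-selection-like cells 25 of 43 were lower and 0 higher, and in mature SP-like cells 22 of 39 were lower and 1 higher. The median log2 ratios of the list were -0.63, -0.70, -0.55, -0.61 and -0.73, each below the median of all genes given above. Over all genes compared, 26.3%, 35.1%, 29.6%, 36.8% and 32.5% were lower in the same order of stages. The shares of higher genes were 10.6%, 3.2%, 8.07%, 7.14% and 14.6%. By span, 14 of the 21 genes over 50 kb and 4 of the 12 up to 20 kb were lower in DP-like cells, with medians of -0.78 and -0.30. Of all genes in DP-like cells, 50.4% of those of 50 to 100 kb and 71.4% of those over 100 kb were lower. For spans up to 5 kb and of 5 to 20 kb these shares were 8.68% and 12.9%. In mature SP-like cells the counts of the list over 50 kb and up to 20 kb were 14 of 21 and 6 of 9, with medians of -0.85 and -0.79. The shares of all genes there were 44.4% and 62.9% for the 2 longer classes and 15.2% and 20.6% for the 2 shorter ones. The part of span in the ratios of the list was not tested.

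In DP-like cells the lowest ratios of the list were those of *Pag1*, which brings the inhibitory kinase CSK to the membrane, *Grap2* (Gads), which joins SLP-76 to LAT, and *Plcg1*, the phospholipase that LAT recruits. *Pag1* had 362 CPM in WT against 109 CPM in cKO, a log2 ratio of -1.73 (-1.89 to -1.57). *Grap2* was at 739 and 287 CPM, at -1.37 (-1.47 to -1.27). *Plcg1* was at 91.0 and 35.9 CPM, at -1.34 (-1.63 to -1.06). Only *Unc119*, an activator of LCK, was beyond 0.5 in the other direction, from 35 and 33 UMIs, at 0.53 with an interval that held 0 (-0.20 to 1.26). The 3 coreceptor genes were within 0.5, at 0.23 for *Cd4*, 0.33 for *Cd8a* and 0.27 for *Cd8b1*. In mature SP-like cells the lowest were *Sos1*, a Ras exchange factor with 58 WT UMIs and 1 cKO UMI, at -2.63 (-7.96 to -0.10), *Pag1* at -2.01 (-3.15 to -1.06) and *Ptpn22*, a phosphatase of LCK and ZAP70, at -1.76 (-3.22 to -0.61). *Cd4* was the only higher gene there, at 248 CPM in WT and 499.9 CPM in cKO, a log2 ratio of 1.01 (0.69 to 1.32). *Cd8a* at -0.80 (-1.23 to -0.40) and *Cd8b1* at -0.77 (-1.06 to -0.49), named after their values were seen, were lower. The classes of coreceptor given above, 59 to 188 in WT and 10 to 10 in cKO, are drawn from the same UMIs as these ratios and are no separate result.

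**Figure D5:**
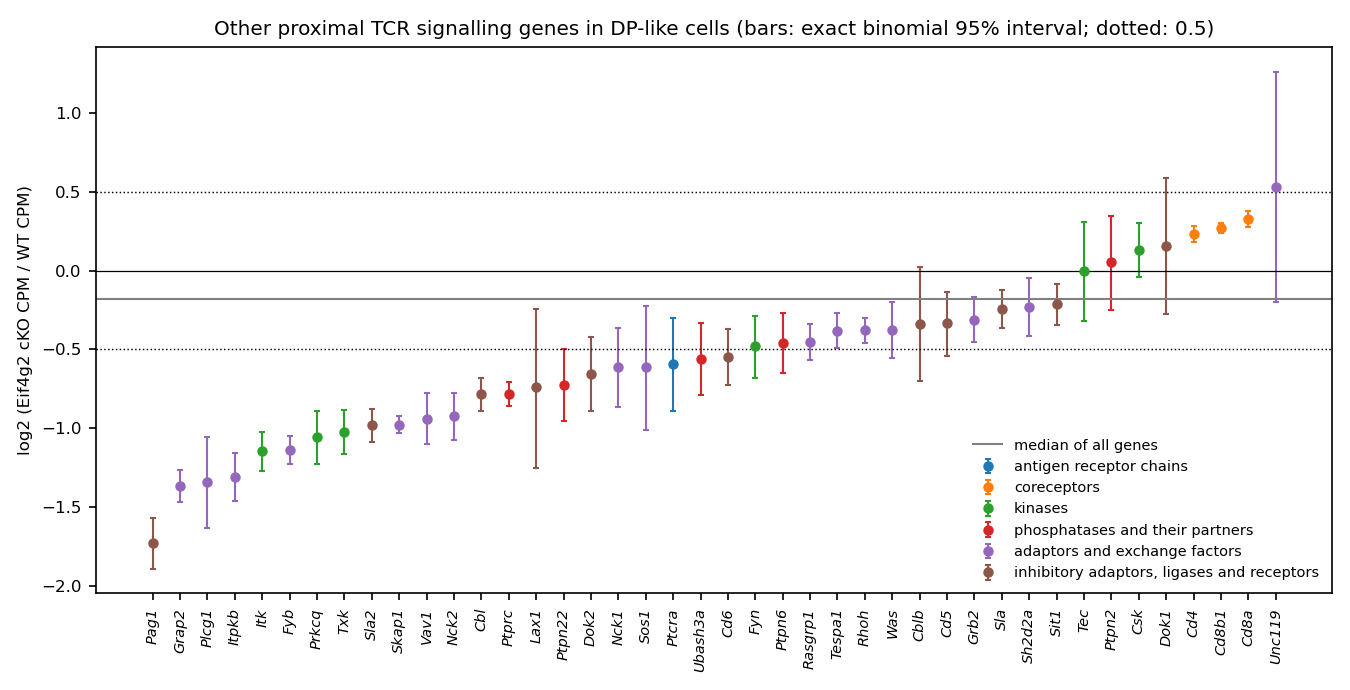
Log2 ratio of *Eif4g2* cKO to WT CPM in DP-like cells of the 42 listed signalling genes with enough UMIs, ordered by ratio and coloured by kind, with exact binomial 95% intervals. Of these, 22 lie below -0.5 and 1 above 0.5, and the 3 coreceptor genes lie together above 0.

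Over the 10 points given by 5 stages in 2 libraries, the levels of the members other than *Cd3g* were positively correlated, to differing degrees. Pearson's r of log2(CPM + 10) was 0.96 for *Cd247* and *Lcp2*, 0.91 for *Cd247* and *Themis*, 0.90 for *Lck* and *Themis* and 0.88 for *Cd3d* and *Cd3e*. It was 0.52 for *Lck* and *Zap70*, 0.41 for *Zap70* and *Lat* and 0.36 for *Cd3d* and *Lat*. Pairs with *Cd3g* had r from -0.32 (*Zap70*) to 0.42 (*Cd3d*), a range that overlaps the lowest of the other pairs. The points share libraries and depth, and no r between pairs of other genes is set beside them, so these values are a description. Of the 8891 genes with at least 200 UMIs over these cells, the 3 whose levels were most like those of *Themis* were *Arntl*, *Hdac7* and *Lrrc1*, with r from 0.989 to 0.992. For *Cd247* they were *Fhit*, *Nptn* and *Fam160b1* (0.986 to 0.991), for *Lck* *Btg2*, *Zfp846* and *Lipa* (0.982 to 0.985), and for *Zap70* *Cd6*, *Tmod3* and *Tulp4* (0.965 to 0.967). For *Lat* they were *Cyfip2*, *F13a1* and *Bicral* (0.955 to 0.967), and for *Lcp2* *Tespa1*, *Itgal* and *Arhgap31* (0.980 to 0.995). For *Cd3d* they were *Erp29*, *Clec2i* and *B4galt7* (0.959 to 0.968), for *Cd3e* *Tpp1*, *Mat2b* and *Bnip3l* (0.978 to 0.981), and for *Cd3g* *Dpm1*, *S100a11* and *Snx14*, at a lower r (0.902 to 0.916).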

How the data were processed

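Whole thymi were passed through a strainer and loaded without sorting on the DNBelab C4 system, which counts 3′ tags with UMIs. The authors mapped reads to mm10, per the submitters' processing notes, and made UMI counts with dnbc4tools (version 2.1.3 in the design text, while the file headers name another version). The deposited values are unnormalised counts per gene and barcode, and no barcode had under 1000 UMIs. The counts behind a level depend on both the number of cells and the UMIs per cell. In WT, 975 cycling cells held 7454699 UMIs and 3395 DP-like cells held 5427769. The 2 oligo libraries were not analysed here.

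Following the study's filters, genes seen in at least 3 cells and cells with at least 50 genes and at most 10% mitochondrial UMIs were kept, which left 6012 WT and 4335 cKO cells. The study states fewer cells for both libraries after these filters, and the step behind this difference is not given in the sources used here. After log scaling to 10000 UMIs in each cell, the 2000 most variable genes without the 9 members, the listed signalling genes and *Eif4g2* gave 30 principal components, 20 neighbours and Leiden clusters at resolution 1 (leidenalg 0.10.2, scikit-learn 1.9.0, numpy 2.4.6, scipy 1.17.1, Python 3.11.15). A cluster was named from a list with at least 3 markers raised by 0.5 on the log2 scale and among its leading genes where possible, unless another rule left it unnamed. No doublet caller was run. Counts were summed per library and stage. Poisson intervals were used for CPM, conditional binomial intervals for ratios and Clopper-Pearson intervals for shares. No test was run, as each genotype had 1 library. For shares of cells, each cell was thinned to 1000 UMIs. The interval code was tested on simulated data.

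Positions came from GENCODE M21 (GRCm38) and promoter windows from RefSeq. Of the gene identifiers in the tables, 21456 (97.9%) had the same version in GENCODE M21. The genes named were the 9 members, *Eif4g2*, at most the 3 highest and 3 lowest listed signalling genes beyond 0.5 in DP-like and in mature SP-like cells, and the 3 genes most like each member. Members and lists were chosen with earlier results of these data known. The alternatives covered stricter cells, resolutions of 0.6 and 1.6, each library clustered alone, marker scores, all variable genes, other scalings, thinning, the UMI minimum (20) and cells of at most 10000 UMIs. The most evenly shared DP-like cluster alone was added after seeing the data.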

Additional observations from a re-analysis of the deposited data

Results flagged for a closer look

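The log2 ratio of *Eif4g2* between cKO and WT was above 0 in DN-like (0.50), DP-like (1.01), early post-selection-like (0.59) and mature SP-like cells (0.53) and below 0 in cycling cells (-0.23). With 1 library per genotype each stage gives a single value, and the difference between the stages was not tested. In the cycling class the ratio was 0.20 (0.01 to 0.39) in cluster 6, which holds at least 150 cells of each library.

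The library labelled WT and female held 2542 UMIs of *Eif2s3y*, *Uty* and *Kdm5d*, and the library labelled cKO and female held 1. These genes enter no comparison above, and whether the sex of the mice bears on the levels of the CD3 and signalling genes was not tested.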

How the results depend on the processing

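No paired analysis was possible because each genotype had 1 library, and for the same reason no replicate could be left out. Over 12 alternatives, and 1 more in DP-like cells that was chosen after seeing the data, the *Themis* ratio between the libraries ranged from -2.03 to -1.44 in DN-like, -1.45 to -1.16 in cycling, -1.18 to -0.62 in DP-like, -1.53 to -0.87 in early post-selection-like and -2.96 to -0.39 in mature SP-like cells. It was beyond 0.5 in all of them, except in 2 of 12 for mature SP-like cells. *Cd247* ranged from -0.74 to -0.51 in DP-like and -0.90 to -0.56 in early post-selection-like cells. The cause of the changes below was not tested. The number of lower genes ranged from 1 to 5 in DN-like, 1 to 4 in cycling, 2 to 3 in DP-like, 2 to 4 in early post-selection-like and 1 to 4 in mature SP-like cells.

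The median ratio between the libraries was -0.0912 in DN-like, -0.34 in cycling and 0.18 in mature SP-like cells after thinning, and -0.16 in cycling and -0.0141 in DP-like cells without ribosomal protein and mitochondrial genes. Relative to the median of all genes it was -0.0037 in cycling, 0.0471 in DP-like and -0.20 in early post-selection-like cells. It was -0.63 in DN-like cells by marker scores, 0.10 in mature SP-like cells of at most 10000 UMIs, and -0.21 in the DP-like cluster most evenly shared by the libraries. The median step from DN-like to DP-like cells, in WT and cKO, was 1.06 and 1.24 with stricter cell filters, 0.95 and 1.27 without ribosomal protein and mitochondrial genes, 0.74 and 1.31 after thinning, 1.11 and 1.40 as a mean over cells, 0.75 and 0.99 relative to all genes, 1.05 and 1.28 in cells of at most 10000 UMIs, and 0.49 and 1.15 by marker scores. That from DP-like to early post-selection-like cells in WT was -0.0452 without ribosomal protein and mitochondrial genes, -0.0806 with all variable genes, -0.0960 after thinning, -0.0910 as a mean over cells and 0.0650 relative to all genes. In cKO it was -0.0914 with each library clustered alone, -0.0046 relative to all genes and -0.12 by marker scores. That from early post-selection-like to mature SP-like cells in WT was -0.32 without ribosomal protein and mitochondrial genes, -0.70 after thinning and -0.20 relative to all genes, and in cKO -0.25 with stricter filters, -0.14 after thinning, -0.26 in cells of at most 10000 UMIs and -0.28 by marker scores.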

Other observations

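A small group of cells, named from a joint list of NKT and gamma delta T cell markers, was set beside the stages above. Of that list 7 markers could be read, and no gamma delta TCR gene was among the leading genes of its clusters. The name therefore does not separate these kinds of cell. The group had 53 WT and 16 cKO cells, with medians of 3029 and 3657 UMIs, and pooled a pair of clusters that the libraries filled differently. One, led by *Ccl5* and *S100a4*, held 27 WT and 14 cKO cells, and the other, led by *Tbx21* and *Klrd1*, held 26 WT and 2 cKO cells. *Themis* was at 86.5 CPM in WT, from 16 UMIs, and at 95.2 CPM in cKO, from 7 UMIs, beside 380.2 and 184 CPM in mature SP-like cells. *Zap70* had 292 CPM in WT against 245 CPM in cKO, from 54 and 18 UMIs, beside 153 and 84.9 CPM in mature SP-like cells. In WT, the intervals of *Cd3d* (1471 CPM) and *Cd3g* (1017 CPM) overlapped those of mature SP-like cells. *Cd3e*, at 649 CPM (538 to 776), and *Cd247*, at 254 CPM (187 to 338), lay below theirs. Between the libraries none of the 7 genes with at least 50 UMIs over both was beyond 0.5 in this group, a comparison in which the clusters differ between the libraries. Over all 617 genes compared there, the interquartile range of the ratio was -0.28 to 0.46. The share of them beyond 0.5 was not counted, so the count for the 7 genes is no result about the set.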
